A study of Mus musculus with 39 samples.

Results

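Estrogen receptor (ER) sites that were called with both hormones, but neither with estradiol alone nor at a site of the glucocorticoid receptor (GR), were described in 7438 mouse mammary cells. They were chosen by position in the 7438 lists: the sites of the ER list whose name gives both hormones that share no base pair with the ER list of estradiol (E2), the GR list of dexamethasone (Dex) or the GR list named for both hormones. The calls of those 4 lists chose the sites, and the rule kept 3387 of the 11982 sites in that ER list (28.3%, exact binomial 95% interval 27.5 to 29.1%), out of 110608 sites in all lists used. They are called gained sites without GR. "Gained" means here only that a site was in one list and not in the other, since 7438 had 1 list for each receptor and treatment.

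ER and GR are transcription factors of the steroid receptor family. Each is activated by its own hormone and binds DNA, directly at its response element or through other bound factors such as AP-1. E2 is the natural ligand of ER and Dex a synthetic ligand of GR. In mammary cells the receptors are known to share part of their binding regions, where one receptor can alter the chromatin that the other meets.

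The study mapped ER and GR by chromatin immunoprecipitation and sequencing in cells left untreated or given 100 nM Dex, 100 nM E2 or both (Dex+E2) for 30 min, to compare binding under single and combined ligands. All groups share 2 introduced genes under a tetracycline-regulated promoter, GFP-GR and Cherry-ER, switched on by withdrawing tetracycline the day before hormone. The 7438 Afos cells carry Afos under such a promoter as well. The labels do not explain that name; A-Fos is an engineered dominant-negative that pairs with Jun proteins and blocks AP-1 binding to DNA. For 7438 Afos there were 2 replicate lists per receptor and treatment. Nothing says that these came from separate cultures, so their spread may be technical. Depth is unknown, since only called sites are listed, without read totals, and the other 15 of the 39 samples were not analysed here.

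The names and the labels of 4 of the 7438 lists disagree. The ER and GR lists named Both are filed under samples labelled untreated, and the lists named for untreated cells are filed under samples labelled Dex+E2. The rule follows the names, so "gained with both hormones" holds only if the names are right, and every direction below that rests on a Both-named list has this condition. Taken by the labels instead, 111 sites of a list of 373 meet the rule. The 7438 lists labelled untreated hold 11982 (ER) and 9503 (GR) sites, and those labelled Dex+E2 hold 373 and 143. In 7438 Afos, the untreated lists hold 35 and 49 sites (ER) and 95 and 315 (GR). The Dex+E2 lists there hold 5905 and 2564 (ER) and 14160 and 10309 (GR). The 7438 Afos lists have no such conflict.

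The rule fixed the make-up of the Both-named ER list. Besides the gained sites without GR, it held 3991 sites also in the E2 list and free of GR (33.3%), called E2-held sites without GR. A further 2297 were outside the E2 list and overlapped GR (19.2%), called gained sites with GR, and 2307 had both (19.3%). Gained sites without GR were thus 59.6% (58.3 to 60.9%) of the 5684 sites outside the E2 list. Over all 11982 sites, 52.6% overlapped the ER E2 list, 37.3% the Both-named GR list and 25.2% the GR Dex list; since the rule used these lists, nothing is read from those shares.

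Most excluded sites overlapped their partner broadly. In 7438 every site was 150 bp wide, and 8448 of the 8595 excluded sites shared at least 75 bp with a site of an excluding list. Just inside the rule was a site on chromosome 1 (mm9, 71991787 to 71991937; highest tag density 11.5) that touched a GR site end to end. A site on chromosome 5 (125645653 to 125645803; 24.6) lay 1 bp from GR, and a site on chromosome 2 (167600746 to 167600896; 21.1) lay 3 bp from it. Just outside were a site on chromosome 2 (153761435 to 153761585; 14.9) that shared 1 bp with an E2 site, and sites on chromosome 11 (8605157 to 8605307; 13.5) and chromosome 16 (33937727 to 33937877; 55.9) that shared 4 and 6 bp with GR. Of the gained sites without GR, 83 had an excluding site within 150 bp and 294 (8.68%) within 500 bp, so few lay at the edge of the rule.

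As a class, gained sites without GR were weak for their list. Strength is given as the highest tag density, the authors' own value for each site, and its percentile within the Both-named ER list. It comes from the list that chose the sites and is a description only. The median density was 13.3 (quartiles 11.5 and 16.4), at percentile 25 (95% interval of the median 24.1 to 26.2), close to the lower limit of the list at 10.2. E2-held sites without GR had a median of 20.6 (percentile 57.0), gained sites with GR 17.1 (45.6), and E2-held sites with GR 44.5 (86.7). The weakness was common to most of the gained sites without GR: 2226 (65.7%) were under a density of 15, and 3005 (88.7%) under 20. Under 15 were also 24.4% of E2-held sites without GR, 38.1% of gained sites with GR and 7.46% of E2-held sites with GR. The median z-score, the authors' second measure of strength, was 41.1 for gained sites without GR and 55.1 for E2-held sites without GR.

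**Figure D1:**
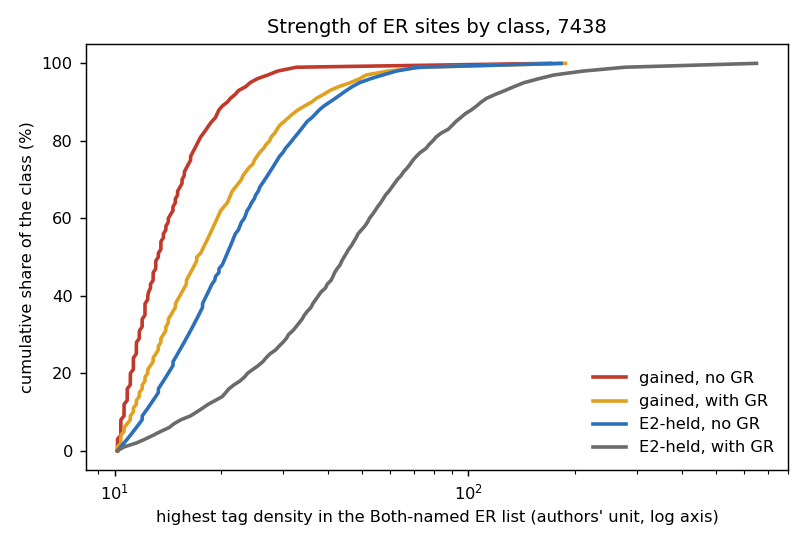
Cumulative share of sites (%) by highest tag density in the Both-named ER list of 7438 (log axis), with 1 line for each of the 4 classes made by the rule. The gained sites without GR have a median of 13.3 and rise first, and the E2-held sites with GR, with a median of 44.5, rise last.

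Split into 5 bins of equal size by density, the list changed its make-up from weak to strong. They made up 57.9% of the weakest bin (densities 10.2 to 12.4), then 44.7%, 26.8% and 10.8% of the next, and 1.17% of the strongest bin (34.6 and above). The weakest bin held 1388 of them (41.0%) and the strongest 28 (0.827%). A density of 32.7 marked their 99th percentile, and the strongest site stood apart at 171, with the next at 61.5.

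The strongest gained site without GR lay on chromosome 7 (148378356 to 148378506), with a density of 171 and a gap of 27345 bp to the nearest GR site. It was also called in the 7438 ER list named for untreated cells, and in no 7438 Afos list. The next lay on chromosome 3 (65331892 to 65332042; 61.5), 5021 bp from GR, and on chromosome 1 (75176683 to 75176833; 59.7), 68241 bp from GR. Both were called in every ER E2, ER Dex+E2 and GR Dex+E2 list of 7438 Afos. The other two of the 5 strongest lay on chromosome 4 (3010051 to 3010201; 57.9) and chromosome 11 (3061431 to 3061581; 53.3), 400 and 141 bp from GR. The first of these was called in both ER E2 lists and in the first ER Dex+E2 list of 7438 Afos, and the second in none. Of the 28 sites in the strongest bin, 5 were in no 7438 Afos list.

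Most of these sites lay more than 10000 bp from GR, as did most E2-held sites without GR. The rule removed overlaps only and left every other distance free. The median gap to the nearest site of the GR Dex or Both-named GR list was 23311 bp (95% interval 21313 to 24813), with quartiles of 5183 and 66198.5 bp and 1 site in 10 beyond 155976 bp. E2-held sites without GR, which went through the same GR filter, had a median of 20992 bp (19874 to 22433). The intervals of the medians overlapped. Within 500 bp of GR lay 217 gained sites without GR (6.41%, 5.61 to 7.28%) and 213 E2-held ones (5.34%, 4.66 to 6.08%). Within 1000 bp the shares were 10.0% and 8.79%, within 10000 bp 34.0% and 34.5%, and within 100000 bp 83.2% and 85.0%. The distance to GR thus ran nearly alike in the E2-held and the gained class; the difference was not tested, since neighbouring sites are not replicates.

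**Figure D2:**
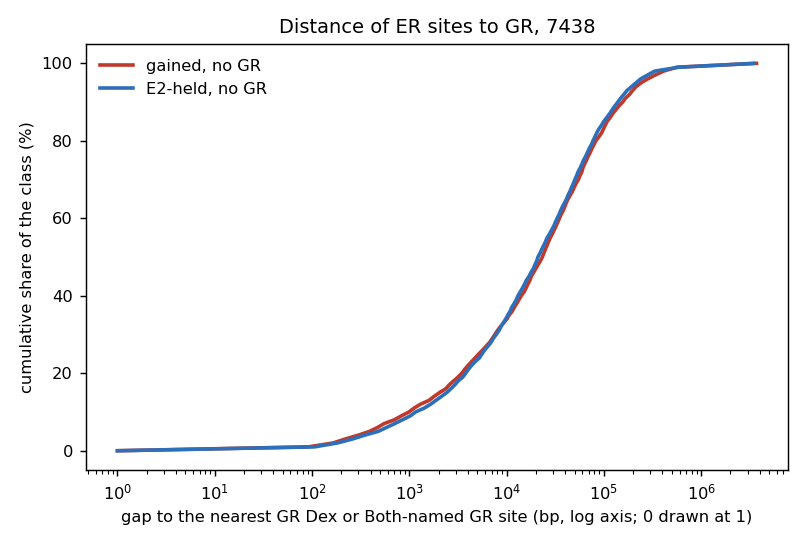
Cumulative share of sites (%) by the gap to the nearest GR Dex or Both-named GR site in 7438 (bp, log axis; a gap of 0 is drawn at 1). The lines of gained and E2-held sites without GR run close together, with medians of 23311 and 20992 bp.

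Neither GR list lay much nearer than the other. The nearest GR site was in the Dex list for 1859 gained sites without GR, in the Both-named list for 1465, and equally near in both for 63. The median gap was 29562 bp to the Dex list and 30882 bp to the Both-named list. To the ER E2 list it was 34958 bp, against 26948 bp for gained sites with GR. The most remote site lay on chromosome X (57658970 to 57659120; density 11.7), 3.70 Mb from GR, and it was called in both 7438 Afos lists of ER Dex+E2 and of GR Dex+E2. The next were on chromosome X (105942438 to 105942588; 14.8), at 2.56 Mb, and on chromosome 2 (177279322 to 177279472; 10.6), at 2.49 Mb. Each of these was in both 7438 Afos ER E2 lists and in no ER Dex+E2 list.

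By the median gap, other ER sites lay farther from gained sites without GR than from any other class. Their median gap to another site of the Both-named ER list was 16396 bp, against 12196 bp for E2-held sites without GR, 10226 bp for gained sites with GR and 5332 bp for E2-held sites with GR. Another ER site lay within 10000 bp of 41.2% of them, and of 46.1%, 49.7% and 61.2% of the other classes in that order. Between neighbouring gained sites without GR, the only class measured so, the median gap was 72594 bp, and 533 (15.7%) had another within 10000 bp. They occurred on every chromosome that held sites of the list, at 25.5% of the sites on chromosome 6 and up to 32.3% on chromosome 9 and 32.7% on chromosome 18.

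Few gained sites without GR were in the 7438 lists that the rule did not use. The ER Dex list held 9 of them (0.266%, 0.122 to 0.504%), where 1.22% of all sites of the Both-named ER list were found. That Dex list had 10149 sites, while the ER Dex lists of 7438 Afos had 61 and 41. The ER list named for untreated cells (filed under Dex+E2) held 12 (0.354%, against 1.71% of all sites), among them the chromosome 7 site. In all, 19 were in one or the other of these 7438 lists and 2 in both. The GR E2 list held 1 (all sites, 1.83%). The GR list named for untreated cells held none (all sites, 0.718%), and a count of 0 allows a share of up to 0.0886%. These shares were below those of all sites, and all sites include the stronger classes.

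The 7438 Afos lists were not used by the rule, and they show in which treatments ER and GR were called at these places in other libraries. Nearly all presence was in the lists with E2 for ER and with Dex+E2 for GR. In the ER lists of untreated cells none of the 3387 sites was called in either replicate (all sites, 0% and 0.0334%), which allows up to 0.0886%. With Dex, 1 and 0 were called (all sites, 0.108% and 0.0334%). With E2, ER was called at 646 gained sites without GR in replicate 1 (19.1%) and at 404 in replicate 2 (11.9%), where 38.3% and 32.9% of all sites of the Both-named ER list were called. With Dex+E2 it was called at 984 (29.1%; all sites, 41.3%) and at 222 (6.55%; all sites, 20.2%). In each of these 4 lists gained sites without GR were called less often than the sites of the whole list.

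The comparison of ER with Dex+E2 against E2 gave no single direction. Gained sites without GR were called at 17.8 ± 15.9% with Dex+E2 and at 15.5 ± 5.05% with E2 (mean ± SD, n = 2), a difference of 2.30 percentage points. Replicate 1 was 9.98 points higher with Dex+E2, and replicate 2 differed by -5.37 points. The 4 values overlapped, and the two-sided exact permutation test over lists gave p = 1 (1 after Benjamini-Hochberg adjustment over 2 tests); with 2 lists a group this test cannot give less than 0.333. The replicate 2 list of ER Dex+E2 was the shortest of the 4, with 2564 sites against 5905, 6046 and 4687. With the 2564 strongest sites taken from each list, Dex+E2 called 7.14% and 6.55% and E2 3.78% and 2.89%. Both Dex+E2 values then lay above both E2 values, a difference of 3.51 points (exact permutation p = 0.333, the smallest possible). The sign of the difference in replicate 2 therefore depended on the length of the lists. The cut left the replicate 2 Dex+E2 list whole, so in that replicate only the E2 share could change, and only downward. The rule had removed sites of the 7438 ER E2 list, so a low share in ER E2 lists is not independent of the rule.

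GR was called at gained sites without GR in 7438 Afos mainly when both hormones were given. GR lists of untreated cells held none of them in either replicate (all sites, 0.384% and 0.985%), and GR lists with E2 held 19 and 0 (all sites, 3.89% and 0.985%). With Dex, GR was called at 119 (3.51%; all sites, 20.2%) and at 51 (1.51%; all sites, 14.6%). With Dex+E2 it was called at 1034 (30.5%; all sites, 46.2%) and at 462 (13.6%; all sites, 35.6%). Both Dex+E2 values lay above both Dex values. The means were 22.1 ± 11.9% with Dex+E2 and 2.51 ± 1.42% with Dex (SD, n = 2), a ratio of 8.80 and a difference of 19.6 percentage points, with 27.0 in replicate 1 and 12.1 in replicate 2. The exact permutation test gave p = 0.333 (0.667 adjusted over 2 tests), the smallest that 2 lists a group allow. With the 5136 strongest sites of each list the shares were 7.97% and 4.07% against 2.18% and 1.51%, and the difference fell to 4.18 points. The rule had removed sites of the 7438 GR Dex list, so a low share in GR Dex lists is not independent of the rule. E2-held sites without GR, which went through the same GR filter, had means of 16.8% with Dex+E2 and 1.48% with Dex.

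**Figure D3:**
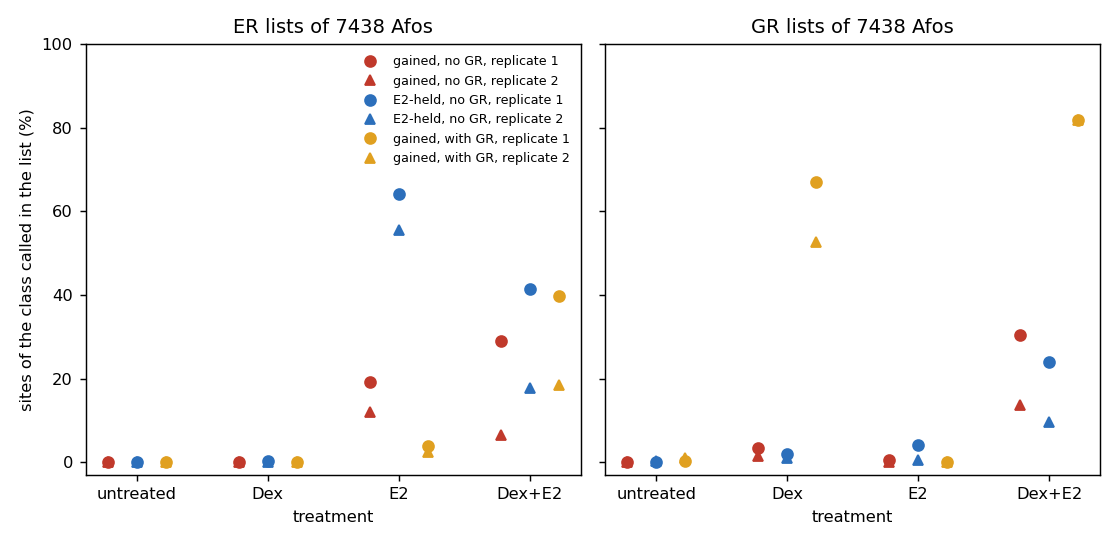
Share of sites called (%) in each 7438 Afos list, by treatment, for ER (left) and GR (right). Each point is 1 replicate list (circle, replicate 1; triangle, replicate 2). Gained sites without GR (red) were called in the ER lists at 19.1% and 11.9% under E2 and 29.1% and 6.55% under Dex+E2, and in the GR lists at 30.5% and 13.6% under Dex+E2.

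Over both replicates and all treatments, most gained sites without GR were in no 7438 Afos list (1817, or 53.6%). A site of any 7438 Afos list was present at 1570 (46.4%, 44.7 to 48.1%), while 69.5% of all sites of the Both-named ER list had one. An ER list held 1289 (38.1%; all sites, 54.5%) and a GR list 1054 (31.1%; all sites, 49%). In at least 1 replicate ER was called at 994 with Dex+E2 (29.3%; all sites, 41.8%) and at 697 with E2 (20.6%; all sites, 40.2%). GR was called at 1051 with Dex+E2 (31.0%; all sites, 48.6%) and at 120 with Dex (3.54%; all sites, 20.3%). Fewer were called in both replicates: 212 for ER with Dex+E2 (6.26%; all sites, 19.7%), 353 under E2 (10.4%; all sites, 31%), 445 for GR with Dex+E2 (13.1%; all sites, 33.3%) and 50 for GR with Dex (1.48%; all sites, 14.5%). The order of the ER treatments turned between these counts, with Dex+E2 ahead in at least 1 list and E2 ahead in both.

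The other classes lay on both sides of these values for ER with E2 and GR with Dex+E2, and above them for ER with Dex+E2. ER with E2 was called at 64.1% and 55.5% of E2-held sites without GR in the 2 replicates, and at 3.96% and 2.48% of gained sites with GR. Gained sites without GR, at 19.1% and 11.9%, lay in between, although by the rule they shared with the latter the absence from the 7438 E2 list. ER with Dex+E2 was called at 41.5% and 17.7% of E2-held sites without GR and at 39.8% and 18.4% of gained sites with GR, above the 29.1% and 6.55% of gained sites without GR. GR with Dex+E2 was called at 24.0% and 9.55% of E2-held sites without GR, at 81.8% of gained sites with GR in each replicate, and at 30.5% and 13.6% of gained sites without GR. GR with Dex was called at 1.95% and 1.00% of E2-held sites without GR and at 66.9% and 52.7% of gained sites with GR. The 7438 Afos sites were at least 251 bp wide, against 150 bp in 7438, and the part of this width in the shares was not tested. Nor were these differences between classes tested, since sites are not replicates.

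Strength in 7438 moved with presence in 7438 Afos. Over the 5 density bins from weakest to strongest, gained sites without GR were in at least 1 ER Dex+E2 list at 17.5%, 26.8%, 44.4%, 61.0% and 75%. E2-held sites without GR of the same bins were there at 11.5%, 20.8%, 32.4%, 55.5% and 77.8%. By this count gained sites without GR were above E2-held ones in the first 4 bins, and the strongest bin holds only 28 of them (interval 55.1 to 89.3%). Replicate 1 carried this order. In replicate 2 alone the shares in bins 1 to 4 were 2.59%, 5.14%, 10.1% and 22% for gained and 2.71%, 5.20%, 9.43% and 21.9% for E2-held sites without GR, close to each other. GR with Dex+E2 was called at 18.7%, 29.7%, 45%, 63.7% and 71.4% of gained sites without GR, against 5.66%, 9.85%, 15.8%, 33.6% and 52.8% of E2-held ones. By replicate, bin 1 had 18.2% and 7.42% of gained and 4.52% and 2.04% of E2-held sites without GR. Bin 4 had 62.2% and 32.8%, against 32.9% and 12.1%. These differences were not tested, since sites are not replicates. For ER with E2 the order was the other way, at 17.9%, 19.0%, 24.5%, 29.0% and, with 14 of 28 sites in the strongest bin, 50% of gained sites without GR and at 43.9%, 53.9%, 61.6%, 73.6% and 92.0% of E2-held ones. The rule had split these classes by the 7438 E2 list, so their order for ER with E2 is not independent of it. Intervals of these shares cover counting error only.

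**Figure D4:**
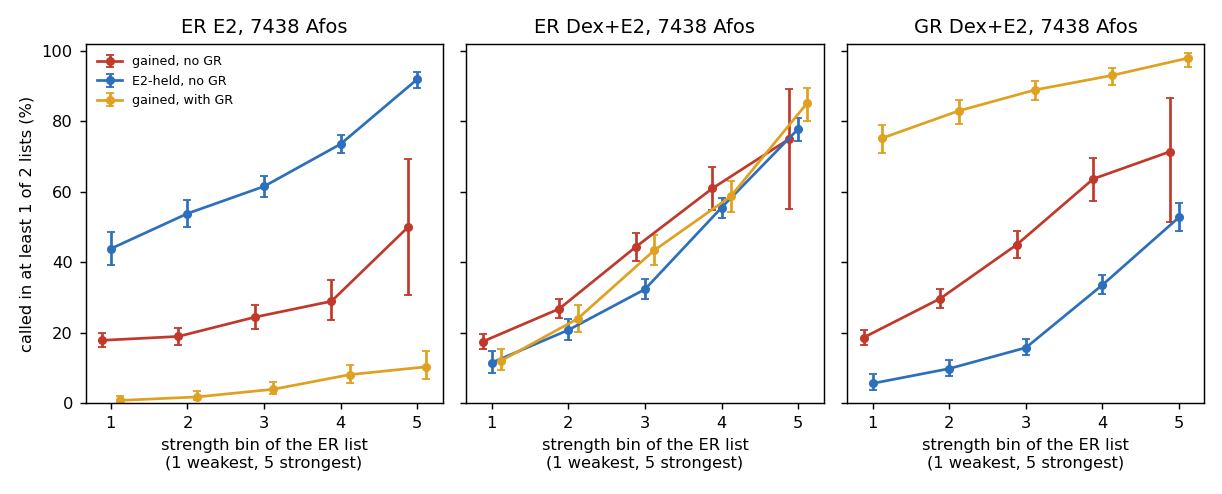
Share of sites called in at least 1 of 2 replicate lists of 7438 Afos (%), by density bin of the Both-named ER list of 7438 (1 weakest, 5 strongest), in panels for the ER lists of E2 and Dex+E2 and the GR lists of Dex+E2. Points are class shares and bars exact binomial 95% intervals. Within bins 1 to 4 gained sites without GR (red) lie above E2-held sites without GR (blue) for both Dex+E2 receptors and below them for ER with E2; for ER with Dex+E2 replicate 2 alone has 2.59% and 2.71% in bin 1 and 22% and 21.9% in bin 4.

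The same-numbered ER lists of 7438 Afos were then set against each other site by site, to see whether the places called with both hormones and not with E2 in 7438 had the same pattern there. In replicate 1, 1259 gained sites without GR were in the E2 or the Dex+E2 list. Of these, 613 (48.7%) were only in the Dex+E2 list, 371 (29.5%) in both and 275 (21.8%) only in the E2 list. Of all sites of the Both-named ER list in either list, 27.7% were only in Dex+E2, 50.3% in both and 22% only in E2, so the share only in E2 was near that of all sites. In replicate 2, with the short Dex+E2 list, 529 were in either: 125 (23.6%) only in Dex+E2, 97 (18.3%) in both and 307 (58.0%) only in E2. Of all such sites in either list these patterns held 14.6%, 37.9% and 47.5%. The replicates gave opposite orders for gained sites without GR, while in each their share only in Dex+E2 was above, and their share in both lists below, that of all sites. Of all sites, 52.6% overlapped the 7438 ER E2 list, and the rule kept these out of the gained class. The differences from all sites are thus not independent of the rule.

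With equal numbers of strongest sites the replicates gave closer values. The cut left the replicate 2 Dex+E2 list whole and shortened only its E2 list. In that replicate the share only in Dex+E2 therefore could not fall. With 2564 sites from each list, an alternative chosen after the data were seen, 193 of 321 gained sites without GR called in either list were only in Dex+E2 in replicate 1 (60.1%), and 192 of 290 in replicate 2 (66.2%), against 29.9% and 28.6% of all sites in either list. Only in E2 were 24.6% and 23.4%, against 27.1% and 31.2% of all sites. For E2-held sites without GR the share only in Dex+E2 was 7.29% and 9.77%, and for gained sites with GR 96.4% and 96.0%. As deposited these shares were 3.29% and 1.51%, and 90.1% and 87.0%. In both replicates and both ways of cutting the lists, gained sites without GR lay between these classes.

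**Figure D5:**
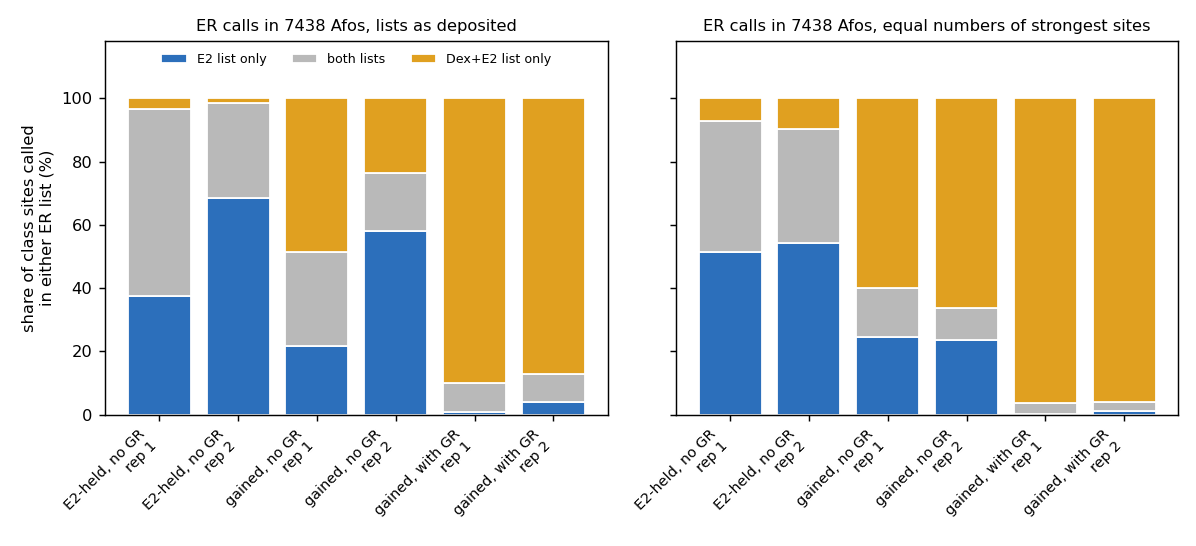
Make-up (%) of the sites called in the E2 or the Dex+E2 ER list of 7438 Afos, by class and replicate, with the lists as deposited (left) and with 2564 strongest sites from each list (right). Among gained sites without GR the share only in Dex+E2 (yellow) is 48.7% and 23.6% on the left and 60.1% and 66.2% on the right.

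Where ER was called in 7438 Afos with both hormones, GR was mostly called too, over all sites of the Both-named ER list as at gained sites without GR. In replicate 1, 754 of the 984 gained sites without GR in the ER Dex+E2 list were also in the GR Dex+E2 list (76.6%, 73.9 to 79.2%), and in replicate 2, 145 of 222 (65.3%, 58.7 to 71.6%). Of all sites of the Both-named ER list in the ER Dex+E2 list, 78.4% and 72.4% had GR. Among places with an ER Dex+E2 call, gained sites without GR thus carried GR at a share near that of the whole list in replicate 1. In replicate 2 their share was below it. Over all gained sites without GR, called for ER or not, the share was 30.5% and 13.6%, against 46.2% and 35.6% of all sites. E2-held sites without GR had GR at 54.7% and 36.4% of their ER Dex+E2 sites, and gained sites with GR at 99.7% and 99.1%. The share was higher for stronger sites: 70.0% in bins 1 and 2, 80.1% in bin 3 and 90.5% in bins 4 and 5 in replicate 1, and 54.9%, 70.8% and 74.2% in replicate 2. E2-held sites without GR had 37.3%, 43.6% and 60.7% in replicate 1 and 22.4%, 36.8% and 37.5% in replicate 2.

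GR calls differed by ER pattern within the gained sites without GR in the order seen over all sites. Of those only in the Dex+E2 ER list, 84.0% in replicate 1 and 68.0% in replicate 2 had GR with Dex+E2 (all sites, 91.6% and 89.9%). Of those in both ER lists, 64.4% and 61.9% had it (all sites, 71.1% and 65.6%), and of those only in the E2 list, 5.09% and 9.12% (all sites, 6.86% and 11.5%). All these shares were below those of all sites. Without an ER Dex+E2 call, GR was present at 11.7% and 10.0% of gained sites without GR, at 23.6% and 26.3% of all such sites, and at 2.31% and 3.77% of such E2-held sites without GR. GR Dex+E2 lists were longer than ER Dex+E2 lists (14160 and 10309 sites against 5905 and 2564).

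By presence in at least 1 replicate list, the most frequent pattern was absence, with 1819 gained sites without GR (53.7%; all sites, 30.8%) in no list of ER E2, ER Dex+E2 or GR Dex+E2. Next came 502 (14.8%) with ER and GR under Dex+E2 and no ER with E2, a share near the 13.2% of all sites. A further 282 (8.33%; all sites, 11.6%) had ER with E2 only, 280 (8.27%; all sites, 14.7%) GR with Dex+E2 only and 257 (7.59%; all sites, 19.6%) all of these. ER in both treatments without GR was found at 146 (4.31%; all sites, 7.95%). ER with Dex+E2 only and no GR, the pattern by which these sites were chosen in 7438, was found at 89 (2.63%; all sites, 1.08%). Median densities in 7438 were 12.6 for sites in none of these lists, 15.7 for the ER and GR pattern, 17.3 for sites in all of them, 12.4 for ER with E2 only and 14.0 for ER with Dex+E2 only.

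Several named sites show these patterns; the values are the highest tag densities in the 2 replicate lists of 7438 Afos. ER at the chromosome 3 site reached 29.2 and 14.3 with E2 and 45 and 11.3 with Dex+E2; GR there reached 44.8 and 17.8 with Dex and 89.4 and 53.4 with Dex+E2. GR was called there with Dex alone, although the nearest 7438 GR site lay 5021 bp away. At the chromosome 1 site starting at 75176683, ER reached 57.8 and 35.0 with E2 and 42.6 and 14.4 with Dex+E2, and GR reached 21.7 and 14.1 with Dex+E2 and was not called with Dex. A second site on chromosome 1 (93380467 to 93380617; density 46.8 in 7438), 168 bp from GR and 175 bp from an ER E2 site of 7438, had the highest ER values of the named sites, 160 and 105 with E2 and 92.7 and 39.4 with Dex+E2. GR with Dex+E2 reached 73.1 and 41.7 there. These 3 sites, called gained in 7438, overlapped sites of the ER E2 list in both 7438 Afos replicates. Those lists had median widths of 572 and 568 bp. Whether the call at the third site belonged to the E2 site 175 bp away was not tested.

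The named sites on chromosomes 11 and 15 had no ER call with E2 in 7438 Afos. The site on chromosome 11 (8603598 to 8603748, density 42.1) lay 289 bp from GR and 286 bp from an ER E2 site of 7438. ER there reached 27.3 and 13.6 with Dex+E2, and GR 37.4 and 23.2 with Dex+E2 and 17.8 in the first Dex list alone. On chromosome 15 (81703090 to 81703240; 45.7), 24164 bp from GR, ER with Dex+E2 was called in replicate 1 only, at 24.1, and GR with Dex+E2 reached 38.6 and 21.6. A second site on chromosome 7 (16900619 to 16900769; 43.2) had ER at 25.9 in each E2 list, at 30.2 and 19.3 with Dex+E2, and GR with Dex+E2 in replicate 1 only, at 31.6. The 3 sites at the median density of 13.3, on chromosome 10 (38970638 to 38970788), chromosome 12 (29583604 to 29583754) and chromosome 13 (98697450 to 98697600), were in no 7438 Afos list. Of the named sites in these 2 paragraphs, those other than the 3 of median density include sites chosen for their calls in 7438 Afos, so nothing is read from their being called there.

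GR calls under Dex alone were concentrated near 7438 GR sites, among gained and E2-held sites without GR alike. Of the 340 gained sites without GR within 1000 bp of a 7438 GR site, 84 (24.7%) were in a GR Dex list of 7438 Afos. Between 1000 and 10000 bp the share was 0.864%, between 10000 and 100000 bp 1.20%, and beyond that 1.58%. E2-held sites without GR had 18.5%, 0.195%, 0.397% and 0.502% in the same ranges. The 120 sites with a GR Dex call had a median gap of 229 bp to 7438 GR. The 7438 Afos GR Dex sites had median widths of 598 and 570 bp in the 2 lists, and the part of this width in the calls was not tested. GR with Dex+E2 was called at 45.6% within 1000 bp, then at 25.3%, 28.4% and 38.3% in the wider ranges, and at 42.7%, 20.4%, 22.6% and 29.3% of E2-held sites without GR. ER with E2 was called more often farther from GR, at 12.4% within 1000 bp and then 15.2%, 21.9% and 29.3%, as it was at E2-held sites without GR, at 58.1%, 63.3%, 67.3% and 75.1%. ER with Dex+E2 stood at 28.2%, 22.7%, 29.3% and 39.5%. The median density in 7438 was 14.8 within 1000 bp and between 13.1 and 13.3 in the wider ranges.

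In 7438 Afos the sites at these places were also of low rank in their own ER lists. Their median percentile by density was 36.9 and 26.0 in the 2 ER Dex+E2 lists and 34.0 and 26.5 in the ER E2 lists, against 52.5 and 40.8, and 61.1 and 55.3, for those at E2-held sites without GR. In the GR Dex+E2 lists they stood at 45.2 and 31.0, against 40.8 and 29.5. In the GR Dex lists both classes stood high, at 71.8 and 79.2 for gained and 72.5 and 79.9 for E2-held sites without GR. Where ER was called at gained sites without GR in 7438 Afos, its sites were thus mostly of low rank there too.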

How the data were processed

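ER and GR ChIP-seq was used from 24 lists of called sites, 8 from 7438 and 16 from 7438 Afos; 15 of the 39 samples were not analysed here. Build mm9 and CASAVA 1.8 were named, per the submitters' processing notes; aligner, peak caller and threshold: not given in the sources used here. Per the file headers, each deposited site has a highest and an average tag density (the authors' signal) and a z-score (the authors' score); the 7438 Afos lists also hold a deposited p-value, not used. The scaling of tag density is not stated, so sites were ranked within their own list. In 7438 no site was under a density of 10 or a z-score of 15.

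Groups follow the labels, except the 7438 lists of untreated and Dex+E2 cells, which the rule takes by name. Presence meant an overlap of at least 1 bp. Shares carry Clopper-Pearson 95% intervals, which cover counting error only, as do the limits for a count of 0 (3 counts of the total). Presence in 7438 Afos was compared over lists with two-sided exact permutation tests (2 tests, Benjamini-Hochberg adjusted). Overlap and test routines were tested on simulated data. Named sites are the 5 of highest density, the 5 of highest density in both 7438 Afos lists of ER Dex+E2 and of GR Dex+E2, the 3 nearest to and 3 farthest from GR, and 3 at the median density; the text gives the leading ones. The sites, classes and lists were chosen with earlier results of these data known. Alternatives were other overlap rules, the labels in place of the names, stricter density, each GR list left out, other strength and distance measures, both replicates required, single replicates, blocks of same-numbered lists and equal list lengths. Gene annotation, sequences and motifs were not used here, since no mm9 reference was at hand. Coordinates are as in the lists; whether the first base counts as 0 or 1 is not stated. Computation used Python 3.11.15, NumPy 2.4.6, SciPy 1.17.1, pandas 2.3.3 and matplotlib 3.10.9.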

Additional observations from a re-analysis of the deposited data

How the results depend on the processing

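Of 115 values recomputed under an alternative, 72 stayed within their spread or call, 41 moved and 2 changed direction. Taken by the labels, 111 sites met the rule, with a strength percentile of 51.5, a median gap of 74943 bp to GR, and shares of 16.2% in the ER Dex list, 3.60% in ER Dex+E2, 4.50% in ER E2, 5.41% in GR Dex+E2 and 0.901% in GR Dex of 7438 Afos; the ER difference became -0.45 points (exact permutation p = 1). At or above the median density, 556 sites remained, with percentile 60.4, a gap of 12751 bp, and shares of 55.8%, 28.8%, 56.1% and 7.37% in the same order. With no excluding site within 500 bp, the gap was 26299 bp and the GR Dex share 1.36%; within 2000 bp, they were 32240 bp and 1.19%, with strength 23.4. Excluding only at 50% reciprocal overlap gave 0.509% in ER Dex of 7438 and 5.55% in GR Dex. Without the Both-named GR list, strength was 27.8 and the gap 17433 bp. By z-score, strength was 27.9. To GR sites at or above their median density, the gap was 51247 bp. Calls in both replicates gave 6.26% (ER Dex+E2), 10.4% (ER E2), 13.1% (GR Dex+E2) and 1.48% (GR Dex). With 7438 Afos sites at or above their median density these were 9.68%, 5.76%, 14.0% and 2.10%. Within 500 bp, GR Dex was at 6.41% and ER Dex of 7438 at 1.45%. With the density and z-score limits of 7438 applied to 7438 Afos, chosen after the data were seen, ER E2 was at 10.9%.

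Leaving out either replicate gave shares of 6.55 to 29.1% (ER Dex+E2), 11.9 to 19.1% (ER E2), 13.6 to 30.5% (GR Dex+E2) and 1.51 to 3.51% (GR Dex). The ER difference then ran from -5.37 points (without replicate 1) to 9.98, and the GR difference from 12.1 to 27.0. With same-numbered lists as a replicate block, the differences stayed at 2.30 (ER, exact p = 1) and 19.6 points (GR, exact p = 0.5, the smallest possible), and no call changed. Same-numbered lists deviated together with a correlation of 0.0364 over sites for ER and -0.137 for GR. Whether they shared a culture or a batch cannot be told from this. With the GR numbers crossed, chosen after the data were seen, 0 of 1 comparisons passed, as without crossing. Weak calls limit what absence from these lists can show, and depth is unknown. Of the gained sites without GR, 65.7% had densities under 15, near the lower limit of 10.2. Whether a place missing from a list lay just under its threshold was not tested.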

Other observations

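The densest run of gained sites without GR lay at the start of the mapped part of chromosome 17. Between 3006606 and 3035230 (mm9) there were 10 of them among 20 sites of the Both-named ER list, and the other 10 were E2-held sites without GR. Their densities ran from 14.6 to 37.9 (median 19.8). In 7438 Afos, ER was called at 3 of the 10 with E2 and at 2 with Dex+E2, and GR at 1 with Dex+E2. The first base of this run is also the lowest coordinate of any site on that chromosome in all lists used. The strongest site on chromosome 4 named above lies in a like place, since the lowest coordinate on that chromosome was 3007178. On chromosome 11 the lowest coordinate was 3042554, and the named site starting at 3061431 lay within 100 kb of it.

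A second run on chromosome 12 (109442261 to 109506476) held 8 gained sites without GR among 13 ER sites, with densities from 12.6 to 16.4. In 7438 Afos, ER was called at 2 of the 8 with E2, and at none with Dex+E2.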
